A study of Homo sapiens with 15 samples.

Results

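The genes described here are 10 enzymes that make, lengthen and desaturate fatty acids: FASN, ACACA, ACLY, SCD, FADS1, FADS2, ELOVL1, ELOVL5, ELOVL6 and ACSS2. They were taken by symbol, from a list that uses no measured value but was drawn up with earlier results of these data known, and all 10 were found among the 60664 genes of the deposited table. All 10 were also among the 14899 genes that passed a filter of at least 1 TPM in at least 3 libraries. TPM is a transcript abundance corrected for transcript length and relative to the whole library, so that levels of different genes can be set side by side.

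HCT116, an established human colorectal carcinoma cell line labelled wild type, was exposed for 72 h to extracts of oil production waste products (OPWPs) or to pure hydroxytyrosol (HTyr), a phenolic compound of olives. Apulia was the origin of the extract AE, Tuscany that of TE and Sicily that of SE. Extracts and HTyr were each given at 0.0154 mg/mL, and the fifth group was left untreated. Each of the 5 groups had 3 libraries of poly(A) RNA, 15 in all, described in the labels as biological replicates. The comparisons ask what each treatment did to the transcripts and where the extracts differed from HTyr and from each other. The bracketed codes in the sample titles pair S with Tuscany and T with Sicily, against the deposited columns and the sample descriptions. The descriptions were followed, and all 1539 values compared for each TE and SE library equalled those under the same name in the supplementary table of the study. That match shows which columns carry the names TE and SE, and if the title codes were right instead, every TE and SE value here would swap. The study's methods describe its data in general as coming from independent experiments. Nothing specific to the RNA libraries names separate cultures, so that a p-value here reflects no more than the spread among libraries.

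Fatty acid synthesis starts from acetyl-CoA in the cytosol, which ACLY splits off citrate and ACSS2 makes from acetate. ACACA carboxylates it to malonyl-CoA, FASN builds palmitate from the units, and the ELOVL enzymes lengthen the chains while SCD, FADS1 and FADS2 place double bonds in them. Transcription of many of these genes is driven by SREBP factors, with NF-Y and SP1 bound nearby, and many carcinomas, colorectal ones among them, express the pathway strongly.

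The promoters of SCD, ACLY and ACSS2 are shown because, of the genes with a promoter entry, ACLY and SCD rose most with SE and ACSS2 was the only one that fell. The sequences are from RefSeq on GRCh38.p14, read 5′ to 3′ on the strand of the gene, and hold the bases before a transcription start that lie in no annotated exon. Capitals mark CCAAT (the NF-Y box) and GGGCGG (the GC box) on either strand, so that ATTGG and CCGCCC are the same boxes read on the other strand.
SCD, chr10:100346983-100347232, plus strand: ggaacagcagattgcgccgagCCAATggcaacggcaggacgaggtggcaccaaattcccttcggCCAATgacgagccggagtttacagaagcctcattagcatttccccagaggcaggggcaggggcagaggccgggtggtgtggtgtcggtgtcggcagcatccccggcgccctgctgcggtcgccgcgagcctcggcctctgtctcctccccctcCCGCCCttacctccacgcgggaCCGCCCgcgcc
ACLY, chr17:41919023-41919272, minus strand: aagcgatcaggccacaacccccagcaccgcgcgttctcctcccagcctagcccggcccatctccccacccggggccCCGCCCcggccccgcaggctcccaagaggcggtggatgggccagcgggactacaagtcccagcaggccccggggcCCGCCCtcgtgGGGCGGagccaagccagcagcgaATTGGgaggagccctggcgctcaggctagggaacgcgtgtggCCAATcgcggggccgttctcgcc
ACSS2, chr20:34876362-34876571, plus strand: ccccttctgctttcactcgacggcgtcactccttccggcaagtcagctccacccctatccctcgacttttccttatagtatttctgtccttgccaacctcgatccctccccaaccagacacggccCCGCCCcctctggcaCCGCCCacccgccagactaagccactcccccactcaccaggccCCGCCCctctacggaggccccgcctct
SCD had 2 CCAAT and 2 GGGCGG matches, ACLY 2 and 3, and this ACSS2 window 0 and 3. The 40 exonic bases of that ACSS2 window are left out. A second ACSS2 start, not printed, had 1 CCAAT and 1 GGGCGG match. RefSeq windows of 250 bases before the start were held for 9 of the 10 genes, 14 windows in all, with none for FASN. CCAAT stood in windows of 6 of the 9 genes (8 of 14 windows), against 32.0% of 35116 windows of the same length over all genes. GGGCGG stood in windows of 8 of the 9 genes (11 of 14 windows), against 42.6% of all windows. CACGTG, the E-box, was found for ELOVL5 alone, against 6.34% of all windows. TCACNCCAC, the core of the sterol regulatory element, was found for none, against 0.883% of all windows. The shares over all genes are per window, so they stand beside the counts of windows and not of genes. A gene was counted when any of its windows matched. ACLY had a second window, not printed, that overlaps the printed one, so their shared boxes count in each. The windows of FADS2 also overlap. All 4 motifs were searched on both strands, and a match or its absence describes these letters only.

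Values were put on the scale log2(TPM + 0.5) and tested in a single limma fit of the 5 groups, and a gene was called at a Benjamini-Hochberg adjusted p under 0.05 together with a fold change over 1.5 in either direction. With SE, 5 of the 10 genes rose (FASN, ACLY, SCD, FADS1 and FADS2) and 1 fell (ACSS2), where 28.0% of all genes tested passed both thresholds and 17.0% rose. With AE, TE and HTyr, 0 of the 10 passed both thresholds, where 16.6%, 12.7% and 16.2% of all genes passed in either direction. Fold changes stayed below the fold threshold there, while the adjusted p from limma alone was under 0.05 for 4 genes with AE, 4 with TE and 4 with HTyr, and the unadjusted p for 5, 5 and 6. The adjusted p alone was under 0.05 for 39.8%, 34.0% and 39.4% of all genes with these 3 treatments, and the unadjusted p for 47.6%, 43.5% and 47.5%. The median log2 fold change of the 10 genes was 0.08 with AE, 0.13 with TE, 0.59 with SE and 0.10 in HTyr-treated cells, and that of all genes tested 0.09, 0.05, 0.09 and -0.04. The 4 comparisons share the same 3 untreated libraries.

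Every library lay above all 3 untreated ones for 4 of the 10 genes with AE, 4 with TE, 7 with SE and 5 in HTyr-treated cells, where 30.5%, 26.7%, 34.3% and 21.7% of all genes tested did. Every library lay below them for 1 gene with AE, 1 with TE, 1 with SE and 2 in HTyr-treated cells, where 18.4%, 20.0%, 23.2% and 26.7% did. ACLY, SCD and FADS1 were above with all 4 treatments, and ACSS2 was below with AE, SE and HTyr.

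Some measures of the whole series moved with the groups. Each library had between 13653 and 14034 genes at 1 TPM or more, and since TPM keep no depth, the depth behind them is unknown. Ribosomal protein genes held 19.9% to 22.6% of all TPM with SE and 26.9% to 29.3% in untreated cells, and the mitochondrially encoded share was 15.6% to 21.5% over all libraries. All 6 epithelial markers were expressed, with a summed level of 1879 to 2012 TPM with SE and 3354 to 3436 TPM in untreated cells. The sum was 2152 to 2247 TPM with AE, 2384 to 2463 with TE and 2221 to 2438 with HTyr. It does not show whether each marker moved. Of the intestinal markers, CDX2 alone passed 1 TPM, and VIL1, LGR5 and CDX1 were at or near 0. The 4 adipocyte and 3 hepatocyte markers summed to under 1 TPM in every library. Among leukocyte markers, CD68 stood at 2.18 to 3.27 TPM with SE and 16.4 to 17.3 TPM in untreated cells, while PTPRC and CD3E were at or near 0. CD68 was also low with AE (1.58 to 2.88 TPM), TE (4.58 to 5.95) and HTyr (5.48 to 6.82). With the TPM rescaled without mitochondrially encoded genes, 6 of the 10 genes again passed both thresholds with SE and 0 with AE, TE or HTyr. The part of the other shifts in the results was not tested. In bulk RNA, fewer cells of a type and less RNA per cell cannot be told apart.

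**Figure D1:**
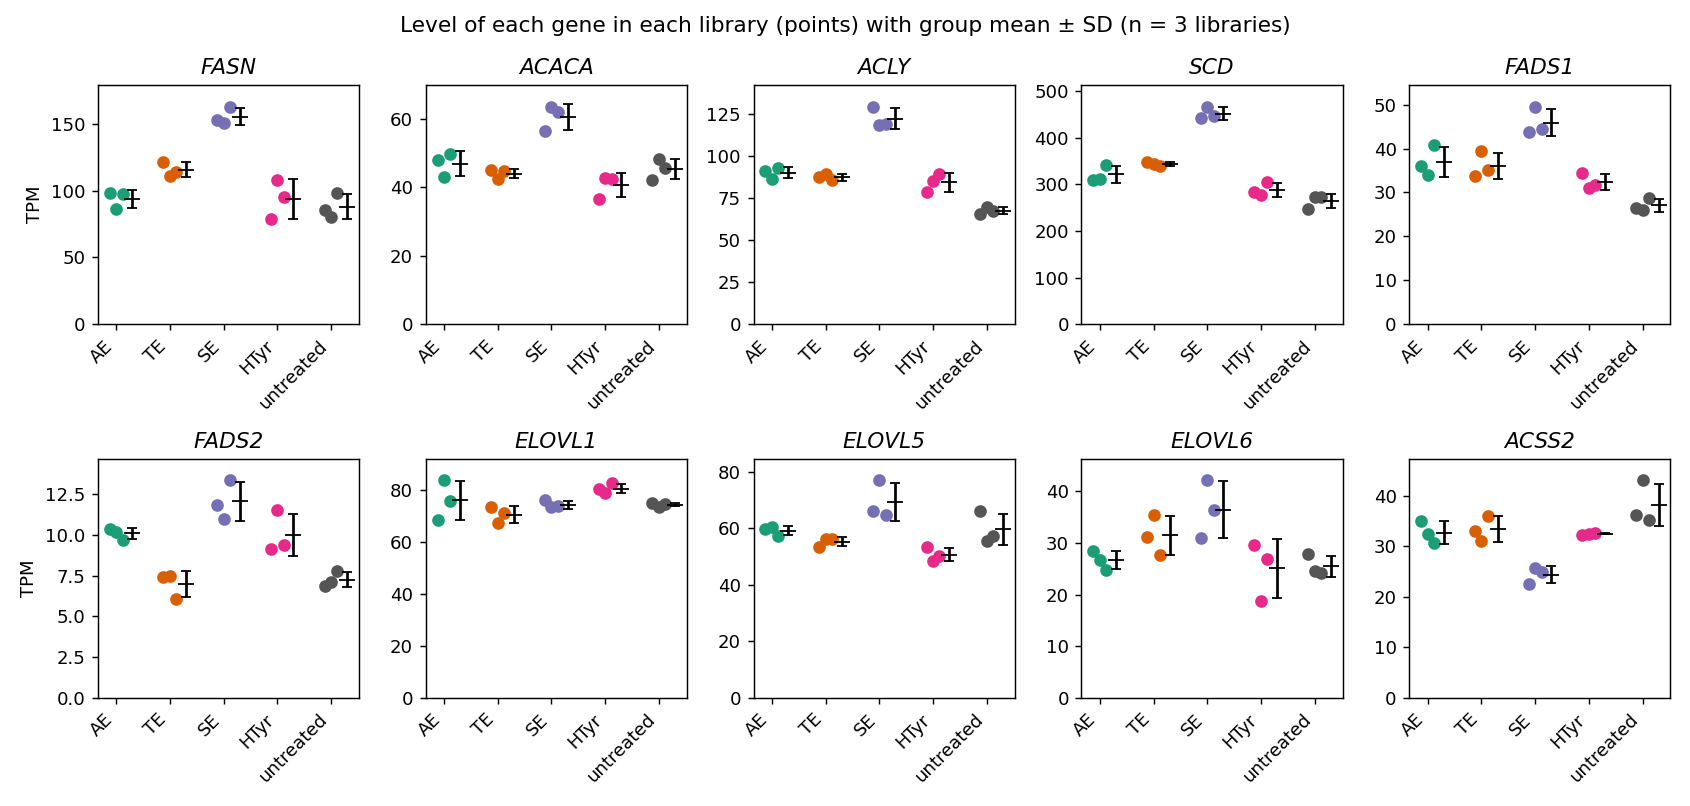
Level of each of the 10 genes in TPM (vertical axes, each from 0) in each library of AE, TE, SE, HTyr and untreated cells, with points for libraries and bars for the group mean ± SD (n = 3 libraries). The SE points of FASN, ACACA, ACLY, SCD and FADS1 lie above all 12 others, and those of ACSS2 lie below all 12 others.

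The enzymes that supply acetyl-CoA went in opposite directions with SE. ACLY, the ATP-citrate lyase (ENSG00000131473, chromosome 17, 41866917 to 41930542), stood at 91.2, 86.5 and 93.0 TPM with AE, 87.4, 89.5 and 85.7 with TE, 129.6, 119 and 119 with SE, and 78.7, 85.3 and 89.5 in HTyr-treated cells, against 65.6, 69.7 and 67.6 TPM in untreated cells. All 12 treated libraries lay above all 3 untreated ones, which held for 15.3% of all genes tested. ACLY rose with SE by 0.85 ± 0.06 (log2 fold change ± standard error, as below, limma adjusted p = 3.71e-08), which is 1.80-fold. It was higher by 0.41 with AE, 0.37 with TE and 0.32 with HTyr, with adjusted p from limma of 7.548e-05, 0.0002659 and 0.0006874, each short of the fold threshold.

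ACSS2, the cytosolic and nuclear acetyl-CoA synthetase (ENSG00000131069, chromosome 20, 34872146 to 34927962), had 35.1, 32.5 and 30.6 TPM with AE, 33.0, 31.0 and 36.1 with TE, 22.6, 25.7 and 24.9 with SE, and 32.3, 32.5 and 32.6 in HTyr-treated cells, against 36.3, 43.0 and 35.2 TPM in untreated cells. The SE libraries were the lowest of all 15, the AE and HTyr libraries also lay below every untreated one, and the TE libraries overlapped them. ACSS2 fell with SE by 0.63 ± 0.08 (log2, adjusted p = 2.911e-05 by limma). Without the second untreated library, the highest of the 15, the log2 fold change was -0.54, and without the first SE library, the lowest, it was -0.58, both short of the fold threshold with the sign kept. The level of ACSS2 as a ratio to ACLY within each library was 0.328 to 0.384 with AE, 0.346 to 0.421 with TE, 0.174 to 0.216 with SE and 0.364 to 0.410 with HTyr, against 0.521 to 0.617 in untreated cells. The ranges of SE and of untreated cells met those of no other group in this ratio, which was chosen after the values were seen and carries no test.

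The 2 enzymes of palmitate synthesis differed in size. FASN, the fatty acid synthase (ENSG00000169710, chromosome 17, 82078338 to 82098294), had 97.8, 85.9 and 97.6 TPM with AE, 121.6, 111 and 114 with TE, 152.8, 150.3 and 163 with SE, and 78.4, 108 and 95.1 in HTyr-treated cells, against 85.5, 80.2 and 98.4 TPM in untreated cells. The SE and TE libraries lay above every untreated one, and those of AE and HTyr overlapped them. FASN rose with SE by 0.82 ± 0.10 (log2, adjusted p = 1.561e-05 by limma), which is 1.77-fold. It was higher by 0.40 with TE (adjusted p = 0.009151 by limma), short of the fold threshold, and the log2 fold changes were 0.09 with AE and 0.08 with HTyr, with 95% intervals of -0.13 to 0.32 and -0.14 to 0.31.

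ACACA, the cytosolic acetyl-CoA carboxylase that supplies malonyl-CoA (ENSG00000278540, chromosome 17, 37084992 to 37406836), had 56.4, 63.6 and 62.1 TPM with SE, against 42.2, 48.2 and 45.8 TPM in untreated cells. These ranges did not overlap. The log2 fold change was 0.42 ± 0.08 (adjusted p = 0.0006005 by limma), short of the fold threshold. With AE, TE and HTyr, ACACA stood between 36.7 and 49.9 TPM, and all 3 ranges overlapped the untreated one, with log2 fold changes of 0.05, -0.04 and -0.16.

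SCD, the stearoyl-CoA desaturase that makes oleate and palmitoleate (ENSG00000099194, chromosome 10, 100347233 to 100364826), had the highest level of the 10 genes in every library. It stood at 310.3, 312 and 342 TPM with AE, 348, 343 and 339.6 with TE, 442, 467 and 447 with SE, and 283, 276 and 306 in HTyr-treated cells, against 246, 273 and 273 TPM in untreated cells. All 12 treated libraries lay above all 3 untreated ones. SCD rose with SE by 0.78 ± 0.06 (log2, adjusted p = 7.516e-08 by limma), which is 1.71-fold, while under quantile normalization the log2 fold change was 0.52, short of the fold threshold. It was higher by 0.29 with AE and 0.38 with TE (adjusted p = 0.00127 and 0.0001807 by limma), short of the fold threshold, and by 0.13 with HTyr (adjusted p = 0.0874).

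The front-end desaturases FADS1 and FADS2, which act in succession on the way to long polyunsaturated fatty acids, followed different orders across the treatments. FADS1 (ENSG00000149485, chromosome 11, 61799627 to 61829318) had 36.1, 34.1 and 40.8 TPM with AE, 33.8, 39.4 and 35.1 with TE, 43.8, 49.5 and 44.4 with SE, and 34.3, 31.1 and 31.7 in HTyr-treated cells, against 26.4, 26.1 and 28.7 TPM in untreated cells. As for ACLY and SCD, all 12 treated libraries lay above all 3 untreated ones. FADS1 rose with SE by 0.75 ± 0.08 (log2, adjusted p = 4.404e-06 by limma). It was higher by 0.44 with AE, 0.41 with TE and 0.25 with HTyr (adjusted p = 0.0008588, 0.001864 and 0.02646 by limma), each short of the fold threshold. With HTyr the adjusted p from limma reached 0.0949 when the libraries were left out in turn, and was over 0.05 without the first or second untreated or the first HTyr library.

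FADS2 (ENSG00000134824, chromosome 11, 61792980 to 61867354), the least abundant of the 10 genes, had 10.4, 10.2 and 9.71 TPM with AE, 7.43, 7.51 and 6.05 with TE, 11.9, 10.98 and 13.3 with SE, and 9.16, 11.5 and 9.37 in HTyr-treated cells, against 6.86, 7.13 and 7.80 TPM in untreated cells. The AE, SE and HTyr libraries lay above every untreated one, and the TE libraries overlapped them. FADS2 rose with SE by 0.69 ± 0.11 (log2, adjusted p = 0.0001217 by limma). It was higher by 0.45 with AE and 0.43 with HTyr (adjusted p = 0.005153 and 0.006642 by limma), short of the fold threshold, and the log2 fold change with TE was -0.05, with a 95% interval of -0.29 to 0.18. The ratio of FADS2 to FADS1 was 0.238 to 0.299 with AE, 0.172 to 0.220 with TE, 0.222 to 0.300 with SE and 0.267 to 0.370 with HTyr, against 0.260 to 0.273 in untreated cells, with TE the only group below all the others, a ratio chosen after the values were seen. The gene bodies of FADS1 and FADS2 overlap by 29692 bases on opposite strands, with 490 exon bases shared. The library kit marks strand, and whether the counting used it was not found in the sources, so their values in the overlap are uncertain.

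Among the elongases no gene passed both thresholds against untreated cells. ELOVL6, which lengthens palmitate to stearate (ENSG00000170522, chromosome 4, 110045846 to 110199199), had 30.9, 42.1 and 36.3 TPM with SE, against 27.8, 24.6 and 24.1 TPM in untreated cells. These ranges did not overlap, and the log2 fold change was 0.50 ± 0.15 (adjusted p = 0.01443 by limma), short of the fold threshold. Without the first SE library, the lowest of that group, it was 0.61 and past both thresholds, and without the second, the highest, the adjusted p from limma was 0.0693. ELOVL6 stood between 18.7 and 35.4 TPM with the other 3 treatments.

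ELOVL5, an elongase of polyunsaturated chains (ENSG00000012660, chromosome 6, 53267398 to 53349179), had 66.2, 76.9 and 64.6 TPM with SE and 53.3, 48.6 and 50.3 TPM with HTyr, against 66.0, 55.5 and 57.3 TPM in untreated cells. The SE range overlapped the untreated one and the HTyr range lay below it. The log2 fold change was 0.21 with SE and -0.23 in HTyr-treated cells (adjusted p = 0.03023 and 0.02977 by limma), both short of the fold threshold. The value with SE was 0.14 without the second SE library (adjusted p = 0.1508 by limma), and the adjusted p was also over 0.05 without the second or the third untreated library. With HTyr the adjusted p from limma was over 0.05, up to 0.136, without the first untreated library, the second HTyr library or the third HTyr library. ELOVL1, which lengthens saturated and monounsaturated chains to very long ones (ENSG00000066322, chromosome 1, 43363398 to 43368074), stood between 67.1 and 83.7 TPM in all 15 libraries. It had 80.2, 78.9 and 82.5 TPM with HTyr and 73.4, 67.1 and 71.1 TPM with TE, against 75.1, 73.6 and 74.6 TPM in untreated cells. The HTyr libraries lay above every untreated one and the TE libraries below. The log2 fold changes were 0.11 with HTyr and -0.08 with TE (adjusted p = 0.1796 and 0.3832 by limma), and that with SE had a 95% interval of -0.14 to 0.14.

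**Figure D2:**
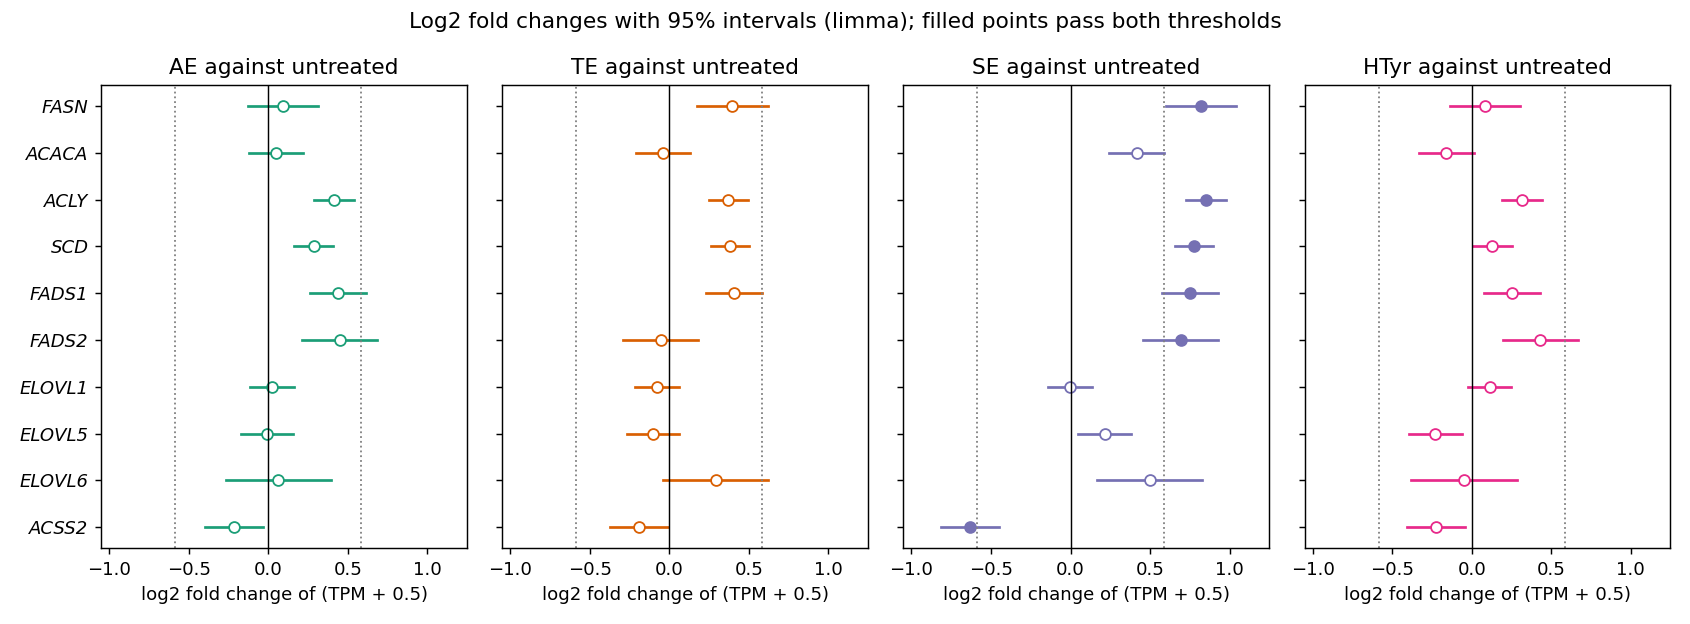
Log2 fold change of (TPM + 0.5) of each of the 10 genes with AE, TE, SE and HTyr against untreated cells (horizontal axes), with 95% intervals from limma, dotted lines at the 1.5-fold threshold and filled points for genes past both thresholds. The 6 filled points are all in the SE panel, 5 to the right and ACSS2 to the left.

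The levels were then ordered over the 5 groups. SE had the highest mean of 8 of the 10 genes and the lowest of ACSS2, where it had the highest mean of 36.2% and the lowest of 20.5% of all genes tested. For 6 of those 8 genes (FASN, ACACA, ACLY, SCD, FADS1 and ELOVL5) the next group in the order differed from SE at an adjusted p under 0.05 by limma, which held for 21.3% of all genes that were highest with SE. For ELOVL5 the next group was untreated cells, and that difference was not kept without the libraries named above. For FADS2 the next group was AE (log2 difference 0.24, adjusted p = 0.1537) and for ELOVL6 it was TE (0.21, adjusted p = 0.3601). Of the 40 pairs of neighbours in these orders, 10 differed at an adjusted p under 0.05 by limma, and 7 of these 10 had SE as a member. Over all genes tested, 9.24% of such pairs differed, and 39.0% of those had SE as a member. The other 3 were HTyr above untreated cells, for ACLY, FADS1 and FADS2. Where AE, TE and HTyr were neighbours, none of their differences had an adjusted p under 0.05.

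The sum over the 10 genes was 794 ± 24.3 TPM with AE, 824 ± 8.84 with TE, 1053 ± 23.2 with SE and 738.5 ± 25.6 in HTyr-treated cells, against 697 ± 17.4 TPM in untreated cells (SD, n = 3 libraries each). The lowest library with SE (1032 TPM) lay above the highest of any other group (834 TPM, with TE). The untreated libraries (678 to 712 TPM) lay below every treated one, the lowest of which was an HTyr library at 716 TPM. SCD made up the largest part of these sums in every library.

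**Figure D3:**
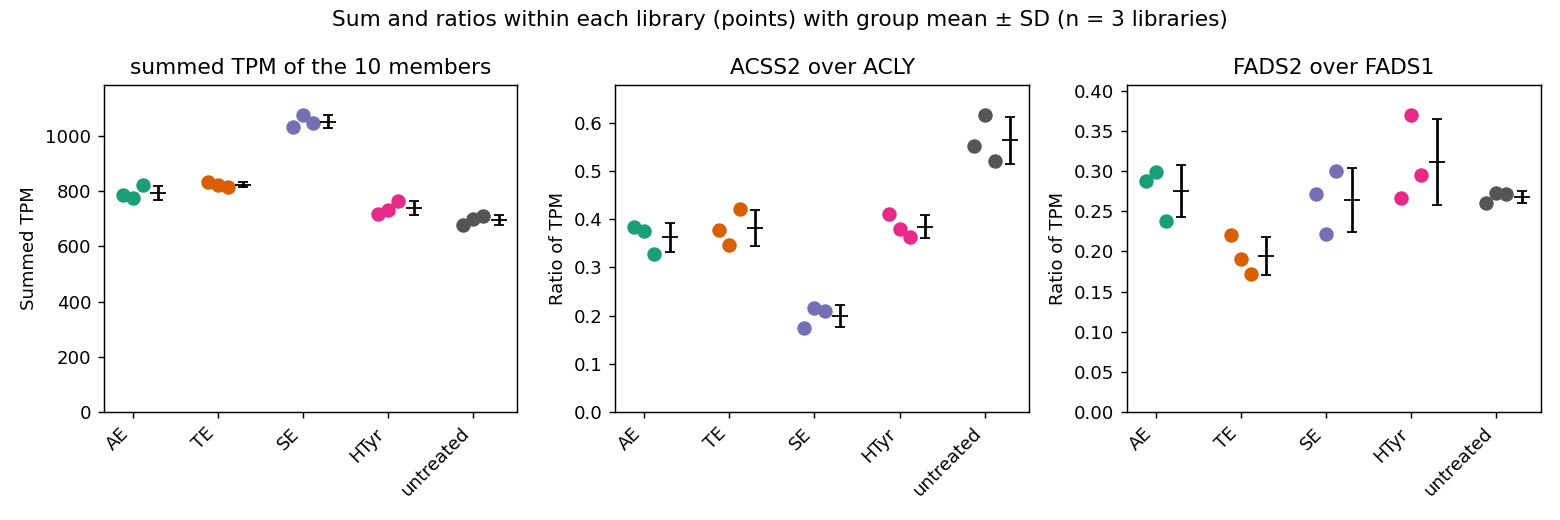
Summed TPM of the 10 genes, the ratio of ACSS2 to ACLY and the ratio of FADS2 to FADS1 (vertical axes from 0) in each library of AE, TE, SE, HTyr and untreated cells, with bars for the group mean ± SD (n = 3 libraries). The SE libraries are highest in the sum, at 1032 to 1078 TPM, and lowest in the ratio of ACSS2 to ACLY, at 0.174 to 0.216, and the TE libraries are lowest in the ratio of FADS2 to FADS1.

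Differences between the treatments themselves were tested in the same fit. Against HTyr, 2 of the 10 genes were higher with SE past both thresholds, FASN by 0.74 ± 0.10 and SCD by 0.65 ± 0.06 (log2, adjusted p = 0.0001733 and 4.13e-06 by limma), where 4.97% of all genes were. The median of all genes in this comparison was 0.13. Median-ratio scaling of the libraries brought it to 0.0051, and SCD then differed by 0.51 and was no longer past the fold threshold. Under quantile normalization neither gene was past it, with FASN at 0.57 and SCD at 0.50. Without the first SE or the third HTyr library, ACACA and ELOVL6 passed as well, 4 genes in all. By the adjusted p alone, 7 genes were higher with SE than with HTyr and ACSS2 was lower, where 22.0% and 6.17% of all genes were.

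Against AE, FASN was higher with SE past both thresholds, by 0.73 ± 0.10 (log2, adjusted p = 0.0002822 by limma), where 1.94% of all genes were. Against TE, FADS2 was higher with SE past both thresholds, by 0.75 ± 0.11 (log2, adjusted p = 0.0002133 by limma), where 4.70% of all genes were. By the adjusted p from limma alone, 6 genes differed between SE and AE and 8 between SE and TE, where 17.5% and 26.4% of all genes did. Between AE and HTyr, TE and HTyr, and AE and TE, 0 of the 10 genes passed both thresholds by limma, where 1.34%, 0.705% and 0.0873% of all genes did. The unadjusted p was under 0.05 for 4, 5 and 2 of the 10 genes in these comparisons, where it was for 26.2%, 19.6% and 11.8% of all genes. The adjusted p alone was under 0.05 for 2 genes between TE and HTyr, SCD at 0.25 and FADS2 at -0.49 (adjusted p = 0.03207 and 0.03247 by limma), and for 0 genes in the other 2, where 3.29%, 9.12% (AE and HTyr) and 0.235% (AE and TE) of all genes had one. For FADS2, AE and TE differed by 0.50 (log2, 95% interval 0.27 to 0.74), with an adjusted p of 0.08888 by limma.

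When the 4 treatments were averaged and set against untreated cells, 0 of the 10 genes passed both thresholds, where 17.9% of all genes did. By the adjusted p from limma alone, and likewise by the unadjusted p, 5 were higher and 1 lower, where 49.9% of all genes had an adjusted and 55.7% an unadjusted p under 0.05. The largest value was that of ACLY, at 0.49 ± 0.05 (adjusted p = 1.093e-06 by limma), followed by FADS1 at 0.46, SCD at 0.39, FADS2 at 0.38 and FASN at 0.35. ACSS2 was lower by 0.32 ± 0.07 (log2, adjusted p = 0.001476 by limma).

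Lists of genes around the pathway were described in the same way, beside the shares over all genes tested, of which 10.7% rose and 5.81% fell with AE, 7.46% rose and 5.26% fell with TE, and 7.80% rose and 8.45% fell with HTyr. With SE, 17.0% rose and 1636 of the 14899 genes fell. Of 18 tested regulators of lipogenesis, 2 rose and 2 fell with SE, 2 rose and 3 fell with AE, 0 rose and 1 fell with TE, and 0 rose and 1 fell with HTyr. INSIG1, which holds the SREBP precursors in the endoplasmic reticulum and is itself a target of SREBP, had 13.8, 13.1 and 14.9 TPM with AE, 16.7, 16.9 and 18.8 with TE, 30.2, 33.4 and 34.3 with SE, and 13.5, 14.2 and 15.3 in HTyr-treated cells, against 14.6, 17.5 and 12.4 TPM in untreated cells. The SE libraries lay above all 12 others. INSIG1 rose with SE by 1.12 ± 0.11 (log2, adjusted p = 1.08e-06 by limma), and SE was also higher than AE by 1.20, than TE by 0.88 and than HTyr by 1.16, each past both thresholds. Between SE and AE, 1 of the 18 regulators was higher and 1 lower with SE past both thresholds, where 289 and 414 of the 14899 genes were. The same counts held between SE and TE, where 700 and 546 genes were. MID1IP1, also in this list, had mean levels of 30.3 TPM with SE, 53.5 with AE, 57.5 with TE, 43.3 with HTyr and 38.5 in untreated cells. Its log2 fold change with SE was -0.33 (adjusted p = 0.009573 by limma), short of the fold threshold.

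The other regulators gave other patterns. SREBF1, which encodes the SREBP that drives lipogenic genes, had 112 ± 4.47 TPM with SE and 103 ± 7.46 TPM with HTyr, against 132 ± 10.3 TPM in untreated cells (SD, n = 3), which on the log2 scale is -0.24 and -0.36 (limma adjusted p = 0.01301 and 0.001379), short of the fold threshold. SCAP, the escort of SREBP precursors, lay between -0.13 and 0.08 with the 4 treatments (log2 fold change), and MLXIPL, a glucose-responsive activator of lipogenic genes, between -0.40 and 0.05. INSIG2, the paralog of INSIG1, fell with AE, TE and SE by 0.73, 0.70 and 0.83 on the log2 scale, and PPARG, a nuclear receptor of adipocyte lipid storage, fell with AE, SE and HTyr by 0.78, 0.81 and 0.64. INSIG2 was at -0.50 with HTyr and PPARG at -0.56 with TE (adjusted p = 0.04148 and 0.0003678 by limma), short of the fold threshold. NFYB, a subunit of the NF-Y factor that binds CCAAT, rose with AE and SE by 0.74 and 0.82. It was at 0.55 with TE and 0.53 with HTyr (adjusted p = 0.01122 and 0.01166 by limma), short of the fold threshold. MBTPS2, a protease that releases SREBP, rose with AE by 0.60, and PPARGC1B, a coactivator, fell with AE by 0.62 on the log2 scale. With TE, SE and HTyr, MBTPS2 was at 0.38, 0.55 and 0.30, and PPARGC1B at -0.54, -0.34 and -0.54. Each of these had an adjusted p under 0.05 by limma and was short of the fold threshold.

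Of 7 tested genes that carry carbon or NADPH to the pathway, 2 rose with SE, 1 with AE, 1 with TE and 0 with HTyr, and 0 fell with any of them. SLC25A1, the mitochondrial citrate carrier that brings ACLY its substrate, had 26.3 ± 1.95 TPM with AE, 29.9 ± 1.93 with TE, 34.3 ± 2.42 with SE and 24.8 ± 3.58 in HTyr-treated cells, against 18.8 ± 3.10 TPM in untreated cells (SD, n = 3). It rose with TE and SE by 0.67 and 0.86 (log2). ME1, the cytosolic malic enzyme that yields NADPH, rose with AE and SE by 0.79 and 0.85, and was at 0.32 with TE and 0.25 with HTyr. CS, the mitochondrial citrate synthase, was higher by 0.35 with SE, and MPC1, a subunit of the pyruvate carrier, lower by 0.38. Both had an adjusted p under 0.05 by limma and were short of the fold threshold. MPC1 was also lower in HTyr-treated cells (-0.51 on the log2 scale) and after AE (-0.47) or TE (-0.35). Each of these values likewise had an adjusted p under 0.05 by limma and was short of the fold threshold. CS was at 0.18 after AE and 0.14 in HTyr-treated cells (adjusted p = 0.006106 and 0.02566 by limma). After TE it was at 0.09 (adjusted p = 0.1344 by limma).

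Of 19 tested further enzymes of synthesis, elongation and desaturation, 3 rose and 1 fell with SE, 1 rose with each of AE, TE and HTyr, and 0 fell with those 3. CYB5B and CYB5A, forms of cytochrome b5, the protein family that passes electrons to the desaturases, rose with SE by 0.94 and 0.67 (log2). CYB5B stood at 677, 605 and 608 TPM with SE, against 291, 354 and 341 TPM in untreated cells. With AE, TE and HTyr its means were 426, 478 and 427 TPM. Those of CYB5A were 42.7, 40.9 and 39.7 TPM, against 30.6 TPM in untreated cells. ELOVL3, an elongase of saturated and monounsaturated chains, rose with AE, SE and HTyr by 0.59, 0.96 and 0.76, and had 9.06 ± 1.39 TPM with SE, against 4.38 ± 0.26 TPM in untreated cells (SD, n = 3). With TE it had 6.11 ± 0.65 TPM and did not pass both thresholds. FADS3, the neighbour of FADS1 and FADS2 on chromosome 11, fell with SE by 0.78 on the log2 scale, to 41.7 ± 6.70 TPM with SE, against 71.7 ± 3.28 TPM in untreated cells. It was also lower, without passing both thresholds, at 49.4 ± 2.54 TPM with AE, 51.6 ± 0.55 with TE and 50.1 ± 4.51 with HTyr. The highest treated library had 54.5 TPM of FADS3 and the lowest untreated one 68.1 TPM. MCAT, which loads malonyl units in the mitochondrial pathway, rose with TE by 0.61, to a mean of 15.8 TPM, against 10.2 TPM in untreated cells. Its means were also higher, without passing both thresholds, at 13.8 TPM with AE, 15.3 with SE and 14.8 with HTyr. The lowest treated library had 11.7 TPM of MCAT and the highest untreated one 11.1 TPM.

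Of 20 tested genes that activate fatty acids or esterify them to glycerol, 2 rose and 3 fell with SE, 1 rose and 3 fell with AE, 1 rose and 3 fell with TE, and 1 rose and 2 fell with HTyr. ACSL5, an acyl-CoA synthetase of mitochondria and endoplasmic reticulum, rose with all 4 treatments, by 0.96 with AE, 0.96 with TE, 0.92 with SE and 0.80 in HTyr-treated cells (log2, adjusted p from 3.5e-08 to 6.4e-07 by limma). ACSL3, the synthetase of nascent lipid droplets, rose with SE by 0.77, to 78.4, 77.9 and 76.5 TPM, against 42.5, 45.4 and 48.1 TPM in untreated cells, and was higher with SE than with HTyr by 0.77, past both thresholds. LPIN2, a phosphatidate phosphatase, fell with AE, TE and SE by 0.70, 0.59 and 0.99 on the log2 scale. With HTyr it had 6.34 ± 0.13 TPM, against 9.49 ± 0.18 TPM in untreated cells, and did not pass both thresholds. AGPAT4, an acyltransferase of phospholipids, fell with all 4 treatments, by 1.51 with SE. AGPAT3, another acyltransferase of that family, was higher and GPAT3, a glycerol-phosphate acyltransferase, lower with all 4 treatments, at an adjusted p under 0.05 by limma and short of the fold threshold. The median log2 fold change with SE was -0.06 over the regulators, 0.41 over the supply genes, 0.16 over the further enzymes and 0.19 over the activation and esterification genes, against 0.09 over all genes tested.

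**Figure D4:**
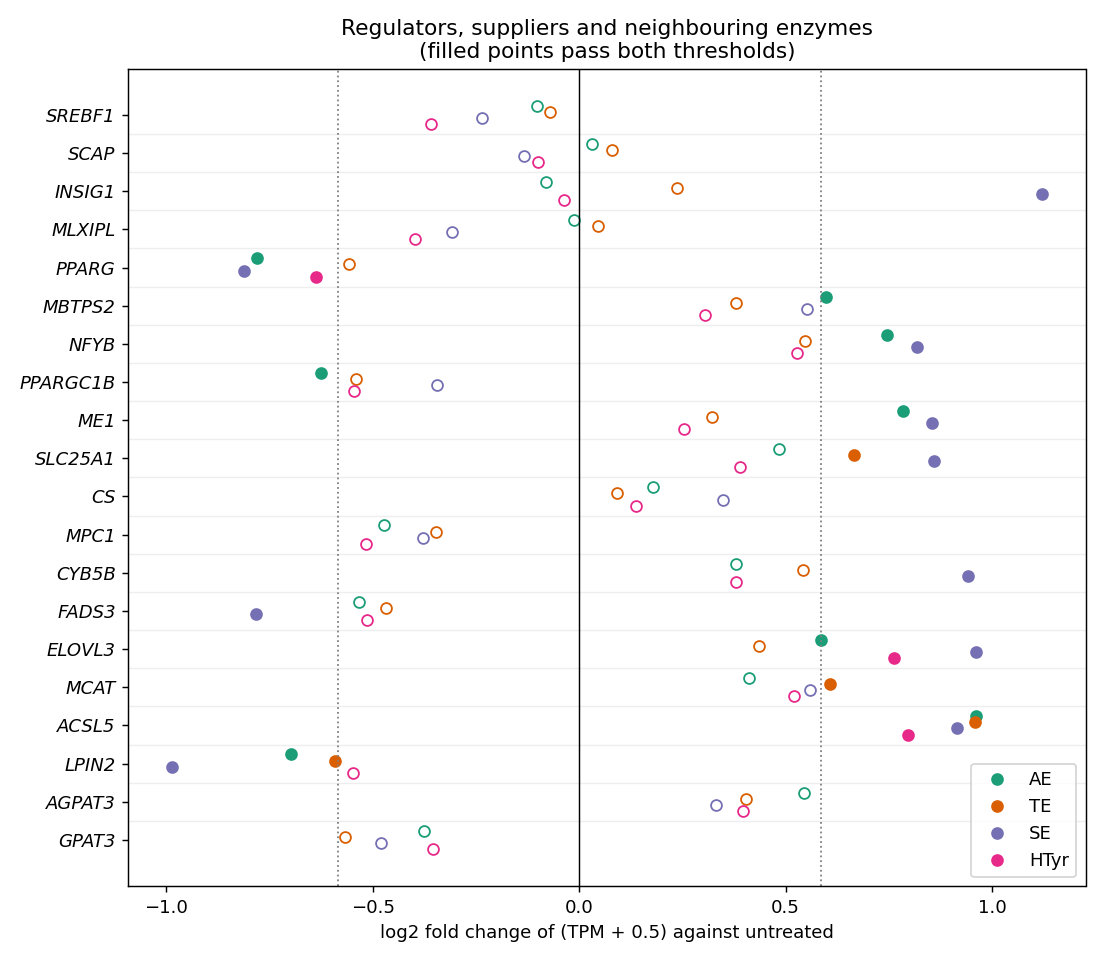
Log2 fold change of (TPM + 0.5) against untreated cells (horizontal axis) of 20 regulators, suppliers and neighbouring enzymes with AE, TE, SE and HTyr, with dotted lines at the 1.5-fold threshold and filled points for genes past both thresholds. INSIG1 is filled with SE alone, at 1.12, and ACSL5 is filled with all 4 treatments, between 0.80 and 0.96.

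The genes whose log2 levels over the 15 libraries were most like those of each enzyme were taken by Pearson's r, a description in which all points share the 5 groups and their libraries. ACLY was most like CACYBP (r = 0.993) and DBI, the acyl-CoA binding protein (r = 0.990). SCD was most like FDFT1 and IDI1, both enzymes of sterol synthesis (r = 0.977 each). FADS1 was most like ABHD3 (r = 0.969), ACSS2 most like FHL1 (r = 0.952), ACACA most like TIPIN (r = 0.946), ELOVL5 most like RANBP6 (r = 0.936), and FASN most like C1D (r = 0.917). The closest matches of FADS2 (TKT, the transketolase, r = 0.899), ELOVL6 (SMARCA1, r = 0.839) and ELOVL1 (NUCKS1, r = 0.758) were weaker, n = 15 libraries each. Second matches were PDCL for FADS1, ERN1 for ACSS2, SASH1 for ACACA, PAXBP1 for ELOVL5 and KLHL21 for FASN (r = 0.964, 0.936, 0.922, 0.921 and 0.916). Those of FADS2, ELOVL6 and ELOVL1 were FDX1, ARHGAP12 and PRKAG2-AS1 (r = 0.889, 0.839 and 0.755).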

How the data were processed

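Poly(A) RNA of HCT116 cells was sequenced by the authors from TruSeq stranded mRNA libraries, 3 in each of the 5 groups. Alignment by the authors was to GRCh38 with STAR and quantification with RSEM, tools that the submitters' processing notes also name without a version. The deposited TPM have 2 decimals and were not scaled across libraries by the authors. TPM keep no depth, so no counting error can be given and no count model was fitted. Each column was assigned to its library by the sample descriptions and by a match, within 0.005 TPM, to the study's supplementary table. Symbols and coordinates are those of GENCODE 44, and promoters those of RefSeq on GRCh38.p14.

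Values were analysed as log2(TPM + 0.5), with all 5 group means in 1 fit of limma 3.58.1 in R 4.3.3, using its mean-variance trend. The 15 libraries and 5 group means left 10 residual degrees of freedom. For the tests and intervals limma added 3.42 prior degrees of freedom. The filter left out 45765 genes, and p-values were adjusted over the 14899 tested. Fold changes on this scale understate the change of genes at low TPM. Tables and figures were made with Python 3.11.15, pandas 2.3.3, numpy 2.4.6 and matplotlib 3.10.9. The fit was tested on simulated data. The 10 genes and the lists around them were chosen with earlier results of these data known. All 10 genes were named, and from each list the 4 tested genes with the lowest adjusted p for the 4 treatments averaged, SREBF1, SCAP, INSIG1 and MLXIPL, the genes a result turned on, and the closest matches in pattern. The alternatives tried were 2 other pseudocounts (0.1 and 1), 2 other filters, 3 other scalings, 2 other fold thresholds, fits of the compared groups only, without the trend or with a replicate block, and leaving out each of the 15 libraries in turn. One marker gene is not reported here.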

Additional observations from a re-analysis of the deposited data

How the results depend on the processing

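Of the 10 single-gene differences past both thresholds, 250 values were computed under other settings, of which 244 kept the call, 6 lost it and 0 changed sign. The 6 were SCD with SE (0.52 under quantile normalization), ACSS2 with SE without the second untreated or the first SE library (-0.54 and -0.58), and, between SE and HTyr, FASN (0.57 under quantile normalization) and SCD (0.51 under median-ratio scaling, 0.50 under quantile normalization). The count of genes past both thresholds was 5 to 6 with SE and 2 to 4 between SE and HTyr when each library was left out in turn (4 without the first SE or the third HTyr library, where ACACA and ELOVL6 were added). Between SE and HTyr it was 1 under median-ratio scaling and 0 under quantile normalization. By the adjusted p alone it was 4 with AE, 4 with TE, 4 with HTyr, 6 in the mean of the 4 treatments, 2 between TE and HTyr, 8 between SE and HTyr, 6 between SE and AE and 8 between SE and TE. Above an absolute log2 fold change of 1 it was 0 with SE and 0 between SE and each other treatment. Same-numbered libraries did not deviate together (r from -0.21 to 0.26, 3 of 30 pairs over 0.1), so the numbers were not read as pairs. With the replicate block the count with SE was 6, and no call of the 10 genes changed.

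Signs that turned were all of values near 0. With AE they were FASN (-0.000847 under median-ratio scaling, -0.000568 under quantile normalization), ACACA (-0.0459 and -0.0347), ELOVL1 (-0.0691 and -0.0734) and ELOVL6 (-0.0300 and -0.0193), and ELOVL5 (0.0206 without mitochondrially encoded genes). ELOVL1 was at 0.0286 with SE without mitochondrially encoded genes, and at -0.0387 and -0.0679 in the mean of the 4 treatments under both scalings. ELOVL6 with HTyr was at 0.00993 under quantile normalization. With each library left out in turn, the ranges that crossed 0 were, with AE, ACACA (-0.0032 to 0.111), ELOVL1 (-0.0466 to 0.0955) and ELOVL5 (-0.0542 to 0.0689), with TE, ACACA (-0.0923 to 0.00255) and FADS2 (-0.105 to 0.0397), with SE, ELOVL1 (-0.0178 to 0.00904), with HTyr, FASN (-0.0218 to 0.205) and ELOVL6 (-0.178 to 0.146), and in the mean of the 4, ELOVL1 (-0.00289 to 0.0326) and ELOVL5 (-0.0792 to 0.0440). The causes were not tested. Unknown depth and 3 libraries a group limit the precision, and ELOVL6 had the largest standard error of the 10 genes (0.153).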

Other observations

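LPIN1, a phosphatidate phosphatase and coactivator that the rule for named genes did not take in and that was chosen after its values were seen, fell with AE, TE and HTyr by 0.75, 0.78 and 0.94 on the log2 scale (adjusted p = 0.00104, 0.00105 and 0.000206 by limma). It had 6.81, 5.35 and 5.06 TPM with AE, 4.83, 5.71 and 6.33 with TE, 8.44, 7.73 and 8.40 with SE, and 5.81, 3.95 and 5.26 with HTyr, against 10.3, 10.8 and 8.85 TPM in untreated cells. With SE its log2 fold change was -0.27 (adjusted p = 0.14), and the difference between SE and HTyr was 0.67 (adjusted p = 0.003745 by limma), past both thresholds. The differences between SE and AE (0.49) and between SE and TE (0.51) had an adjusted p of 0.03393 and 0.0191 by limma and were short of the fold threshold.

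FASN as a ratio to ACACA within each library was 1.96 to 2.03 with AE, 2.56 to 2.70 with TE, 2.36 to 2.71 with SE and 2.14 to 2.52 with HTyr, against 1.66 to 2.15 in untreated cells. The TE and SE ranges lay above the untreated one. This ratio was chosen after the values were seen and was not tested.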
